A study of Homo sapiens with 6 samples.

Results

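The genes described here are 10 components of the NF-kB system, chosen by name from the 58051 genes of the expression table: the subunits NFKB1, NFKB2, RELA and RELB, the inhibitors NFKBIA and NFKBIE, and the target genes TNFAIP2, TNFAIP3, BIRC3 and TRAF1, several of which act back on the pathway. All 10 were found once each under their Ensembl identifiers, and all 10 passed the filter on low values, which kept genes averaging 0.5 FPKM or more across the libraries. FPKM is a read number scaled to gene length and library depth, so levels can be compared between genes. The series holds 6 RNA-seq libraries of cells labelled NTera-2 (NT2), an embryonal carcinoma line: 3 with mimics of piR-36249 and 3 controls with its scramble, where piR-36249 is a piRNA, a class of small RNA known mainly from germ cells. Titles and treatment labels speak of mimics, whereas the genotype label of the mimic libraries and the series design name a knockdown; the titles were followed. No source used here gives the dose, the time after treatment or whether libraries of a group came from separate cultures. The p-values therefore rest on the spread among these libraries alone, which may be technical.

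NF-kB is a family of dimeric transcription factors. In resting cells most dimers are held in the cytoplasm by inhibitors of the IkB family. Signals from TNF, interleukin-1 or Toll-like receptors activate a kinase complex that marks IkB for destruction, and the freed dimers enter the nucleus. Among the genes they switch on are their own inhibitors and other brakes, so the response limits itself. A slower branch, driven by receptors such as CD40 and the lymphotoxin beta receptor, works through processing of the NFKB2 precursor and its partner RELB.

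The labelled cell type was checked first, because it applies to every value below. Of 10 embryonal carcinoma markers, only DNMT3B and PODXL were above 1 FPKM in every library, and NANOG, SOX2, SALL4, TDGF1 and L1TD1 were listed at 0 in all 6. POU5F1 reached at most 0.0706 FPKM. The list summed to between 313 and 354 FPKM in mimic libraries and between 250.1 and 295 FPKM in scramble libraries, nearly all of it PODXL, which other cell types also express. Of 10 endothelial markers, 7 were above 1 FPKM in every library, among them CDH5, TIE1, ERG and PECAM1, whereas KDR, VWF and CLDN5 were not. The summed level of the endothelial markers was between 686 and 748 FPKM in mimic libraries and between 574 and 616 FPKM in scramble libraries. Blood markers (10 genes, 0.502 to 0.713 FPKM in sum in mimic libraries and 0.38999 to 0.515 in scramble libraries) and fibroblast markers (8 genes, 1.49 to 1.70 FPKM in sum in mimic libraries and 0.769 to 0.908 in scramble libraries) were low. Epithelial markers (6 genes) summed to 303 to 319 FPKM in mimic libraries and 294 to 324 FPKM in scramble libraries, from KRT8 and KRT18, with CDH1 at 0. No blood or fibroblast marker was above 1 FPKM in every library. The marker levels thus went against the label, with 2 of 10 embryonal carcinoma markers above 1 FPKM in every library and 7 of 10 endothelial markers. The identity of the cells was not tested. The embryonal carcinoma, endothelial and fibroblast sums were higher in every mimic library than in any scramble library, and their part in the results below was not tested. In bulk RNA, fewer cells of a type and less RNA per cell cannot be told apart.

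Promoter sequences are shown for the regulators that changed and for TNFAIP3, because binding of NF-kB to kB sites at its own regulators is the textbook basis of the feedback. RefSeq promoter windows on GRCh38.p14, 250 bases before and 50 after an annotated start, matched 8 of the 10 genes, all but NFKBIE and RELB. They were searched on both strands for the classic kB consensus, of which overlapping matches can share letters. A match was present in at least 1 window of 5 of the 8 genes (NFKB1, NFKB2, NFKBIA, TNFAIP3 and BIRC3) and in none of the windows of RELA, TNFAIP2 and TRAF1. Over the whole table, 11.3% of 35116 windows and 13.3% of 27305 genes held one. The 250 bases before the start are given below, 5′ to 3′ on the strand of the gene, with matches in capitals: NFKBIA at chr14:35404750-35404999 (minus strand), BIRC3 at chr11:102317234-102317483 (plus strand), TNFAIP3 at chr6:137867009-137867258 (plus strand) and TNFAIP2 at chr14:103123211-103123460 (plus strand).
NFKBIA: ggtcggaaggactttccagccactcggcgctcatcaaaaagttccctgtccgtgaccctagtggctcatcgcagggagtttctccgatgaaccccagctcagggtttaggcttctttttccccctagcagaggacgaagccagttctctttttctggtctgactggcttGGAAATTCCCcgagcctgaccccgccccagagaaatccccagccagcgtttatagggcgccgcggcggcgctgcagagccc
BIRC3: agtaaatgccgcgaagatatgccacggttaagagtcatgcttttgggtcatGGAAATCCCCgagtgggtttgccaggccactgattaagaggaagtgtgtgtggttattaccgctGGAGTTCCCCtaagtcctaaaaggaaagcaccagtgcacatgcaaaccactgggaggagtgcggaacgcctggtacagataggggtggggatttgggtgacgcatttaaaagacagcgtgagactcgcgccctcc
TNFAIP3: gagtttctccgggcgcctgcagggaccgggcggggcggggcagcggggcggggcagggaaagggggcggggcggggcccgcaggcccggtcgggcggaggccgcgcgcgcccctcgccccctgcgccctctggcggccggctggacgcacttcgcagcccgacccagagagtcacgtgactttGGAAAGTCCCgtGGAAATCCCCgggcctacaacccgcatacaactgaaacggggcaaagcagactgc
TNFAIP2: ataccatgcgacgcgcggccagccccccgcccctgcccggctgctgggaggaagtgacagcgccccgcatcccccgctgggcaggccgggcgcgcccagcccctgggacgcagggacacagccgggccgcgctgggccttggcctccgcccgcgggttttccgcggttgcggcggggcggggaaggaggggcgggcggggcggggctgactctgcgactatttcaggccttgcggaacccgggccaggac
The single match of NFKBIA lay 81 to 72 bases before the start. BIRC3 had matches at 199 to 190 and at 135 to 126 bases, and TNFAIP3 at 67 to 58 and at 55 to 46 bases before the start, all of these on the opposite strand of the gene. In NFKB1 the match was GGGAATTTCC, 49 to 40 bases before the start of 1 of its 2 windows. NFKB2 had matches in 2 of its 3 windows, with GGGACTTTCC nearest to a start, 21 to 12 bases away. A match is a description of letters, not evidence of a bound site.

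Among the 10 genes, NFKBIA, TNFAIP2 and RELA were higher with mimic and BIRC3 was lower, while NFKB1, NFKB2, RELB, NFKBIE, TNFAIP3 and TRAF1 did not pass the test. The test was limma on log2(FPKM + 1), Benjamini-Hochberg adjusted over all 12912 tested genes at 0.05, and fold changes on this scale understate changes of genes with low values. Over all tested genes 35.5% passed, 18.7% higher and 16.8% lower. Without the filter on low values, 11.0% of 30416 genes passed, 5.80% higher and 5.22% lower, and 2 of the 10 NF-kB genes were higher and 1 lower. With the filter, the share of NF-kB genes called, 4 of 10, was close to the 35.5% of all tested genes. The 11.0% without it is a lower background, over a set in which most genes lay under the filter. All 10 NF-kB genes passed the filter, so that share is not a like comparison. The median log2 fold change of the 10 NF-kB genes was -0.04, beside 0.00252 for all tested genes. Values of the groups did not overlap in the same 4 genes, and over all tested genes the mimic values lay above all scramble values in 26.0% and below them in 23.2%. None of the 10 genes was in the authors' deposited table of 401 genes, whose smallest absolute log2 fold change was 1.0.

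RELA encodes the main activating subunit and was the most abundant subunit (ENSG00000173039, chromosome 11, 65653596 to 65663094, minus strand, GRCh38). Its level was 53.0, 52.8 and 56.6 FPKM in mimic replicates 1 to 3, against 50.0, 49.8 and 49.1 FPKM in scramble replicates 1 to 3. All mimic values lay above all scramble values, by a small margin. RELA averaged 54.1 ± 2.09 FPKM with mimic and 49.6 ± 0.456 FPKM with scramble (SD, n = 3 each), a log2 fold change of 0.12 (SE 0.039, limma adjusted p = 0.0431). This call was lost when any single library was left out (adjusted p 0.0532 to 0.140) and under 6 other alternative settings, so it stood under 6 of 18.

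NFKB1 encodes a precursor whose processed form pairs with RELA (ENSG00000109320, chromosome 4, 102501329 to 102617302, plus strand). It measured 13.9, 14.9 and 14.5 FPKM in mimic libraries, against 15.4, 15.9 and 14.4 FPKM in scramble libraries, and the groups overlapped. Its log2 fold change was -0.07 (95% interval -0.19 to 0.05, adjusted p = 0.311). NFKB2, the precursor of the slower branch (ENSG00000077150, chromosome 10, 102394110 to 102402529, plus strand), had 17.7, 17.3 and 18.0 FPKM in mimic libraries, against 17.2, 19.0 and 18.3 FPKM in scramble libraries. All mimic values of NFKB2 lay within the range of the scramble values, and the log2 fold change was -0.04 (95% interval -0.14 to 0.07, adjusted p = 0.564). RELB, the usual partner of processed NFKB2 (ENSG00000104856, chromosome 19, 45001430 to 45038198, plus strand), had 4.04, 3.77 and 4.19 FPKM in mimic libraries, against 4.65, 4.01 and 3.98 FPKM in scramble libraries. The highest value came from scramble replicate 1, and the other libraries of both groups lay close together (log2 fold change -0.06, 95% interval -0.21 to 0.09, adjusted p = 0.520). Across these 3 subunits the 95% intervals, on the scale of log2(FPKM + 1), ran from -0.21 to 0.09, with both ends set by RELB. REL, the fifth family member, was under the filter with at most 0.259 FPKM in any library.

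NFKBIA, which encodes IkB alpha, an inhibitor that is itself a direct NF-kB target, was the most abundant of the 10 genes (ENSG00000100906, chromosome 14, 35401511 to 35404749, minus strand). It had 83.2, 74.5 and 86.0 FPKM in mimic replicates 1 to 3, against 58.3, 54.1 and 57.3 FPKM in scramble replicates 1 to 3. The lowest mimic library stood well above the highest scramble library. The means were 81.3 ± 6.002 FPKM with mimic and 56.6 ± 2.19 FPKM with scramble, a ratio of 1.44 and a log2 fold change of 0.51 (SE 0.059, adjusted p = 0.000577). The call held under all 18 alternative settings, with log2 fold changes between 0.47 and 0.57. On the scale of log2(FPKM + 1), an absolute change of this size is larger than that of 94.7% of tested genes. That scale understates changes of genes with low values, so this share favours abundant genes.

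NFKBIE encodes IkB epsilon, another cytoplasmic inhibitor (ENSG00000146232, chromosome 6, 44258166 to 44265788, minus strand). Its values were 5.60, 4.39 and 5.01 FPKM in mimic libraries, against 4.98, 5.399 and 5.003 FPKM in scramble libraries. Mimic replicate 1 was the highest of all libraries and mimic replicate 2 the lowest, so the mimic libraries spanned the scramble values (log2 fold change -0.03, 95% interval -0.21 to 0.15, adjusted p = 0.763). Without mimic replicate 2 the difference turned to 0.04 (adjusted p = 0.669).

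TNFAIP2 is a TNF-induced gene that is known for its part in forming cell protrusions (ENSG00000185215, chromosome 14, 103123442 to 103137439, plus strand). On the scale of log2(FPKM + 1) it rose by about as much as NFKBIA. With 0.1 instead of 1 added to FPKM, the log2 fold change was 0.61 for TNFAIP2 and 0.52 for NFKBIA. TNFAIP2 had 5.88, 7.17 and 6.88 FPKM in mimic libraries, against 4.54, 4.39 and 4.03 FPKM in scramble libraries, with no overlap. The means were 6.64 ± 0.674 FPKM with mimic and 4.32 ± 0.261 FPKM with scramble, a ratio of 1.54. TNFAIP2 had a log2 fold change of 0.52 (SE 0.074, adjusted p = 0.00149), which stayed between 0.47 and 0.62 under 18 alternatives, all past the threshold.

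TNFAIP3 encodes a ubiquitin-editing enzyme that is among the best known brakes on NF-kB (ENSG00000118503, chromosome 6, 137867188 to 137883312, plus strand). It measured 1.43, 1.81 and 1.46 FPKM in mimic libraries, against 1.42, 1.56 and 1.173 FPKM in scramble libraries. The groups overlapped, since scramble replicate 2 exceeded mimic replicates 1 and 3. The log2 fold change was 0.11 (95% interval -0.10 to 0.31, adjusted p = 0.374). The antisense gene WAKMAR2 overlaps it by 1046 bases, and was at most 0.0498 FPKM in any library.

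BIRC3, an inhibitor of apoptosis protein and ubiquitin ligase at TNF receptor complexes, was the only 1 of the 10 genes called lower (ENSG00000023445, chromosome 11, 102317450 to 102339403, plus strand). It had 0.864, 0.930 and 0.862 FPKM in mimic libraries, against 1.40, 1.55 and 1.21 FPKM in scramble libraries. The mimic libraries lay close together and below every scramble library. The means were 0.886 ± 0.0388 FPKM with mimic and 1.39 ± 0.172 FPKM with scramble, so the mimic mean was 0.639 of the scramble mean. On the scale of log2(FPKM + 1), BIRC3 had a log2 fold change of -0.34 (SE 0.072, adjusted p = 0.00918), past the threshold in all 17 alternatives that tested it. This scale understates the change of a gene with values this low. The change was -0.59 with a pseudocount of 0.1 and -0.65 with voom on recovered reads. The reads behind these values numbered 311 to 661 per library.

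TRAF1, a signalling adaptor of TNF receptors and a common NF-kB target, was the lowest of the 10 genes (ENSG00000056558, chromosome 9, 120902393 to 120929173, minus strand). It had 0.645, 0.832 and 0.921 FPKM in mimic libraries, against 1.08, 0.907 and 0.811 FPKM in scramble libraries, with overlap. The replicates differed widely, with an SD of 17.6% of the mean in mimic libraries and 14.5% in scramble libraries. Its log2 fold change was -0.10 (95% interval -0.30 to 0.10, adjusted p = 0.386), on 244 to 436 reads per library.

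**Figure D1:**
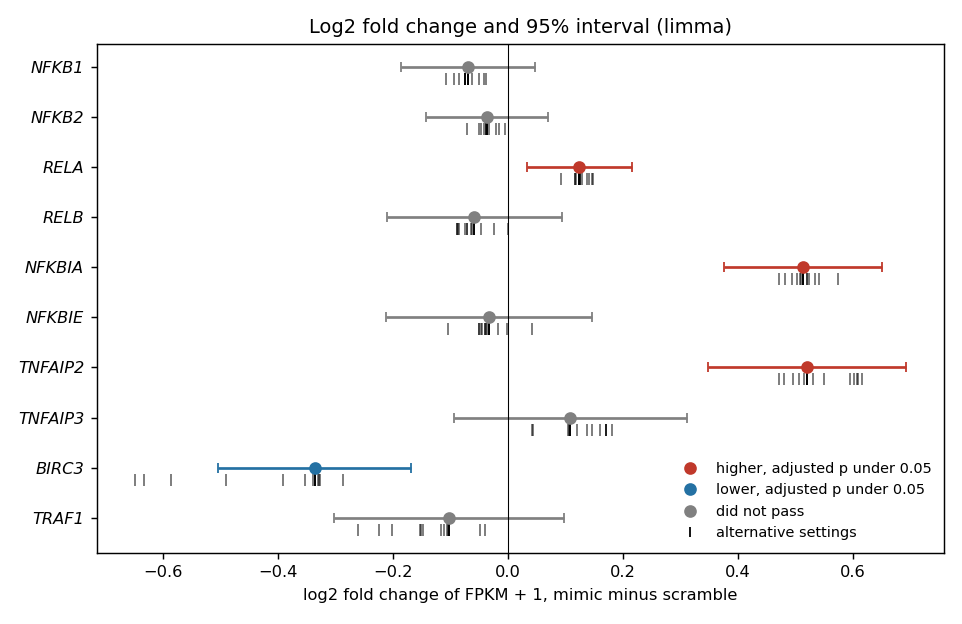
Log2 fold change of FPKM + 1, mimic minus scramble, for the 10 NF-kB genes (horizontal axis), with points and 95% intervals from limma and black ticks for each alternative setting. The ticks of NFKBIA and TNFAIP2 stay between 0.47 and 0.62, those of BIRC3 reach -0.65, and the intervals of the 6 grey genes include 0.

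Ordered by mean FPKM over the 6 libraries, the genes ran NFKBIA (68.9), RELA (51.9), NFKB2 (17.9), NFKB1 (14.8), TNFAIP2 (5.48), NFKBIE (5.07), RELB (4.11), TNFAIP3 (1.47), BIRC3 (1.14) and TRAF1 (0.866). In mimic libraries only BIRC3 and TRAF1 overlapped as neighbours in this order. In scramble libraries TNFAIP2 overlapped NFKBIE, and TNFAIP3 overlapped BIRC3. RELA made up between 56.1% and 60.6% of the summed FPKM of NFKB1, NFKB2, RELA and RELB in each library. That sum was 90.3 ± 2.64 FPKM with mimic and 87.2 ± 1.49 FPKM with scramble (exact two-sided permutation test, p = 0.2, n = 3 each, where 0.1 is the smallest possible). The groups overlapped only because mimic replicate 1 (88.68 FPKM) lay just under scramble replicate 2 (88.70 FPKM).

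Ratios of genes within a library do not depend on how libraries are scaled, and 8 of them were compared. The ratio of NFKBIA to the summed 4 subunits was 0.939, 0.839 and 0.922 in mimic libraries, against 0.669, 0.610 and 0.669 in scramble libraries. NFKBIA transcript thus stood higher relative to subunit transcript in each mimic library than in any scramble library. This ratio leaves out the other inhibitor genes. Against NFKBIE, NFKBIA was 16.3 ± 1.27 times as abundant with mimic and 11.1 ± 0.911 times with scramble. Against NFKBIB, the gene of IkB beta, it was 3.34 ± 0.117 times as abundant with mimic and 2.001 ± 0.0602 times with scramble.

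RELA over NFKB1 was 3.75 ± 0.190 with mimic and 3.26 ± 0.143 with scramble, and TNFAIP2 over TNFAIP3 was 4.26 ± 0.396 with mimic and 3.16 ± 0.309 with scramble. BIRC3 over its close relative BIRC2 was 0.0944 ± 0.00534 with mimic and 0.159 ± 0.0165 with scramble. In all 6 of these ratios the groups did not overlap. Each gave p = 0.1 in an exact two-sided permutation test, the smallest that 3 against 3 libraries allow (0.133 adjusted over the 8 ratios). The first gene of each of these ratios was itself called and did not overlap between the groups, so the ratios are not separate evidence. Over all tested genes, 49.2% did not overlap between the groups. RELB over NFKB2 was 0.226 ± 0.00720 with mimic and 0.233 ± 0.0321 with scramble, and TRAF1 over TRAF2 was 0.0526 ± 0.0117 with mimic and 0.0455 ± 0.00782 with scramble. Both overlapped between the groups (exact permutation p = 1 for the first and 0.4 for the second).

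**Figure D2:**
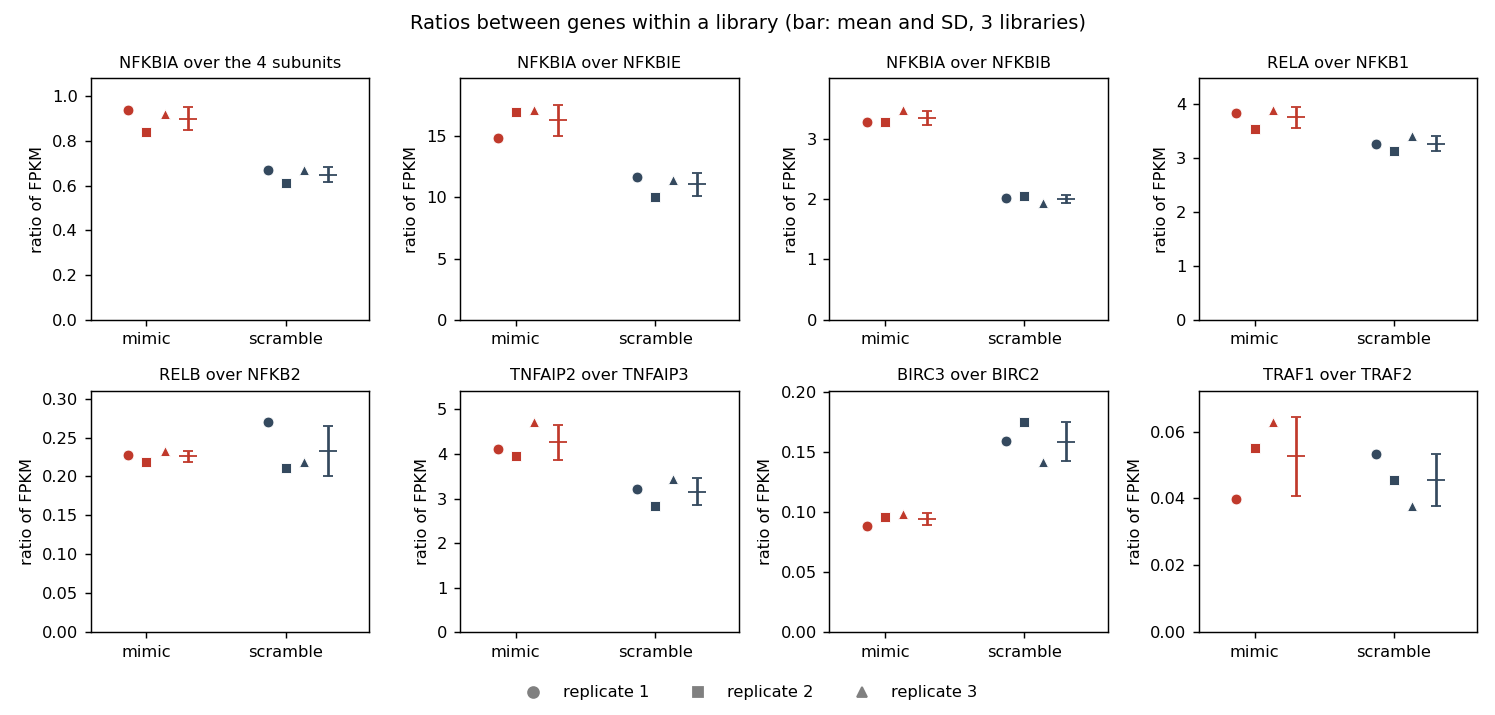
Ratio of FPKM values within each library (vertical axes, starting at 0) for 8 pairs of genes or sums, mimic on the left in red and scramble on the right in dark blue, with mean and SD of 3 libraries. The 4 ratios on top and TNFAIP2 over TNFAIP3 are higher in every mimic library, BIRC3 over BIRC2 is lower, and RELB over NFKB2 and TRAF1 over TRAF2 overlap.

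The other genes of the pathway were read in lists by role, 101 genes in all, of which 78 passed the filter. Of these, 19 were higher (24.4%) and 13 lower (16.7%), against 18.7% and 16.8% of all tested genes. Each list is given below by its counts, with up to 4 genes that had the smallest p among those called.

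Ligands were mostly near 0: 6 of 9 were under the filter, TNF at 0.0380 FPKM at most. Of the 3 tested, IL1A and IL1B, both interleukin-1 genes, were lower and LTB did not pass the test. IL1B had 0.463, 0.514 and 0.633 FPKM in mimic libraries, against 1.72, 1.55 and 1.30 FPKM in scramble libraries. IL1A had 2.07, 2.16 and 1.61 FPKM in mimic libraries, against 3.56, 4.10 and 4.24 FPKM in scramble libraries. Both genes were lower in every mimic library than in any scramble library, as were 23.2% of all tested genes. Both had already been called lower, so this adds no separate result. The mimic mean was 0.353 of the scramble mean for IL1B and 0.491 for IL1A. On log2(FPKM + 1), which understates changes of low genes, their limma log2 fold changes were -0.71 and -0.76. Under the alternative settings they reached -1.53 for IL1B and -1.03 for IL1A. The authors' deposited table, on another scale, gave -1.52 for IL1B and -1.03 for IL1A. IL1R1, the signalling receptor of interleukin-1, was at most 0.0225 FPKM.

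Receptors had 7 of 10 tested genes higher and none lower, with a median log2 fold change of 0.23. TNFRSF1A, the main TNF receptor, had 87.5, 84.2 and 95.2 FPKM in mimic libraries, against 66.3, 62.2 and 66.4 FPKM in scramble libraries (log2 fold change 0.45, adjusted p = 0.000706). TLR4, the receptor for bacterial lipopolysaccharide, had 3.72, 3.49 and 3.49 FPKM in mimic libraries, against 2.30, 1.72 and 1.92 FPKM in scramble libraries (0.62). CD40, a receptor of the slower branch, averaged 18.8 ± 0.575 FPKM with mimic and 13.2 ± 1.36 FPKM with scramble (0.48), and LTBR, the lymphotoxin beta receptor of the same branch, 51.8 ± 2.27 FPKM with mimic and 42.9 ± 1.65 FPKM with scramble (0.27). None of these 4 calls was lost under 17 or 18 alternatives, whereas the call of TNFRSF12A was lost without mimic replicate 1, mimic replicate 3 or scramble replicate 1, and that of TNFRSF11A without mimic replicate 1. TNFRSF1B, EDAR, IL1R1 and TLR2 were under the filter.

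Adaptors and ubiquitin ligases went both ways, with 3 of 17 tested genes higher, 2 lower and 12 not called. MYD88, the adaptor of Toll-like and interleukin-1 receptors, averaged 12.9 ± 0.494 FPKM with mimic and 8.99 ± 0.363 FPKM with scramble (log2 fold change 0.48, adjusted p = 0.000287). TRAF6, the ligase downstream of MYD88, rose by 0.33, a call that was lost without the filter on low values (adjusted p = 0.0509). TRAF2 and TRAF3, which together with the BIRC2 and BIRC3 proteins mark the kinase of the slower branch for destruction, fell. TRAF2 had 16.2, 15.1 and 14.7 FPKM in mimic libraries, against 20.2, 19.999 and 21.5 FPKM in scramble libraries (-0.40, adjusted p = 0.000824). TRAF3 had 9.86, 10.8 and 9.88 FPKM in mimic libraries, against 13.6, 13.7 and 12.9 FPKM in scramble libraries (-0.37, adjusted p = 0.00110). Each of TRAF2, TRAF3 and BIRC3 was lower in every mimic library than in any scramble library, as were 23.2% of all tested genes. All 3 had already been called lower, so this adds no separate result. BIRC2 had a log2 fold change of 0.10 that did not pass the test (adjusted p = 0.184).

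Of 11 tested kinases 3 rose and none fell. MAP3K3 rose by 0.26 on the log2 scale (adjusted p = 0.00365), MAP3K14, the kinase that starts the slower branch, by 0.20 (0.0423), and TBK1 by 0.18 (0.0327). The calls of MAP3K14 and TBK1 were each lost when any of 4 single libraries was left out, mimic replicates 2 and 3 and scramble replicate 1 for both, with scramble replicate 3 for MAP3K14 and scramble replicate 2 for TBK1. Without the filter on low values both were lost too, as was MAP3K14 with a filter of 0.1 FPKM or on the TPM scale and TBK1 with quantile normalization, so that MAP3K14 stood under 10 and TBK1 under 11 of 17 alternatives. The core of the IkB kinase did not pass the test, with log2 fold changes of 0.08 for CHUK, -0.03 for IKBKB and -0.11 for IKBKG.

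Among the other Rel and IkB genes BCL3, a nuclear IkB protein, rose, and NFKBIB and NFKBID fell. BCL3 averaged 6.02 ± 0.541 FPKM with mimic and 4.45 ± 0.328 FPKM with scramble (log2 fold change 0.36, adjusted p = 0.00679). NFKBIB averaged 24.3 ± 1.42 FPKM with mimic and 28.3 ± 1.66 FPKM with scramble (-0.21, adjusted p = 0.0259), and NFKBID had a log2 fold change of -0.24 (adjusted p = 0.0393). NFKBIB was no longer called without the filter on low values or when mimic replicate 2, mimic replicate 3, scramble replicate 1 or scramble replicate 3 was left out, and stood under 13 of 18 alternatives. NFKBID stood under 8 of 17, being lost without any library except mimic replicate 3, with no filter or one of 0.1 FPKM, on the TPM scale and with the replicate number as a block. NFKBIZ (-0.18) and the repressor NKRF (0.05) did not pass the test.

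Of 12 other brakes 2 rose, 2 fell and 8 were not called. RNF11, a partner of the TNFAIP3 protein in its ubiquitin-editing complex, averaged 47.0 ± 0.559 FPKM with mimic and 32.5 ± 0.786 FPKM with scramble (log2 fold change 0.52, adjusted p = 5.6e-05). TNIP1, which binds the same protein, averaged 17.3 ± 0.886 FPKM with mimic and 20.6 ± 0.478 FPKM with scramble (-0.24, adjusted p = 0.00588). CYLD (0.20) and OTULIN (-0.18), both deubiquitinases, each stood under 10 of 17 alternatives. CYLD lost its call when any library except mimic replicate 3 was left out, without the filter and with the replicate number as a block, and OTULIN when any library except scramble replicate 3 was left out, without the filter and on the TPM scale.

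Nuclear targets of NF-kB showed no common direction: 3 of 20 tested genes were higher, 5 lower and 12 not called, and 10 more were under the filter, among them VCAM1, PTGS2 and CX3CL1, listed at 0 in every library. CCL5, a chemokine, averaged 38.3 ± 0.722 FPKM with mimic and 22.2 ± 1.43 FPKM with scramble (log2 fold change 0.76), and EBI3, a cytokine subunit, 37.9 ± 1.25 FPKM with mimic and 27.2 ± 0.563 FPKM with scramble (0.46). BCL2A1, an anti-apoptotic gene, averaged 4.16 ± 0.322 FPKM with mimic and 7.73 ± 0.282 FPKM with scramble (-0.76). PLAU, the urokinase gene, averaged 117.8 ± 6.61 FPKM with mimic and 187.1 ± 6.67 FPKM with scramble (-0.66). The values of each of these 4 genes did not overlap between the groups, as in 49.2% of all tested genes. All 4 had already been called, so this adds no separate result.

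**Figure D3:**
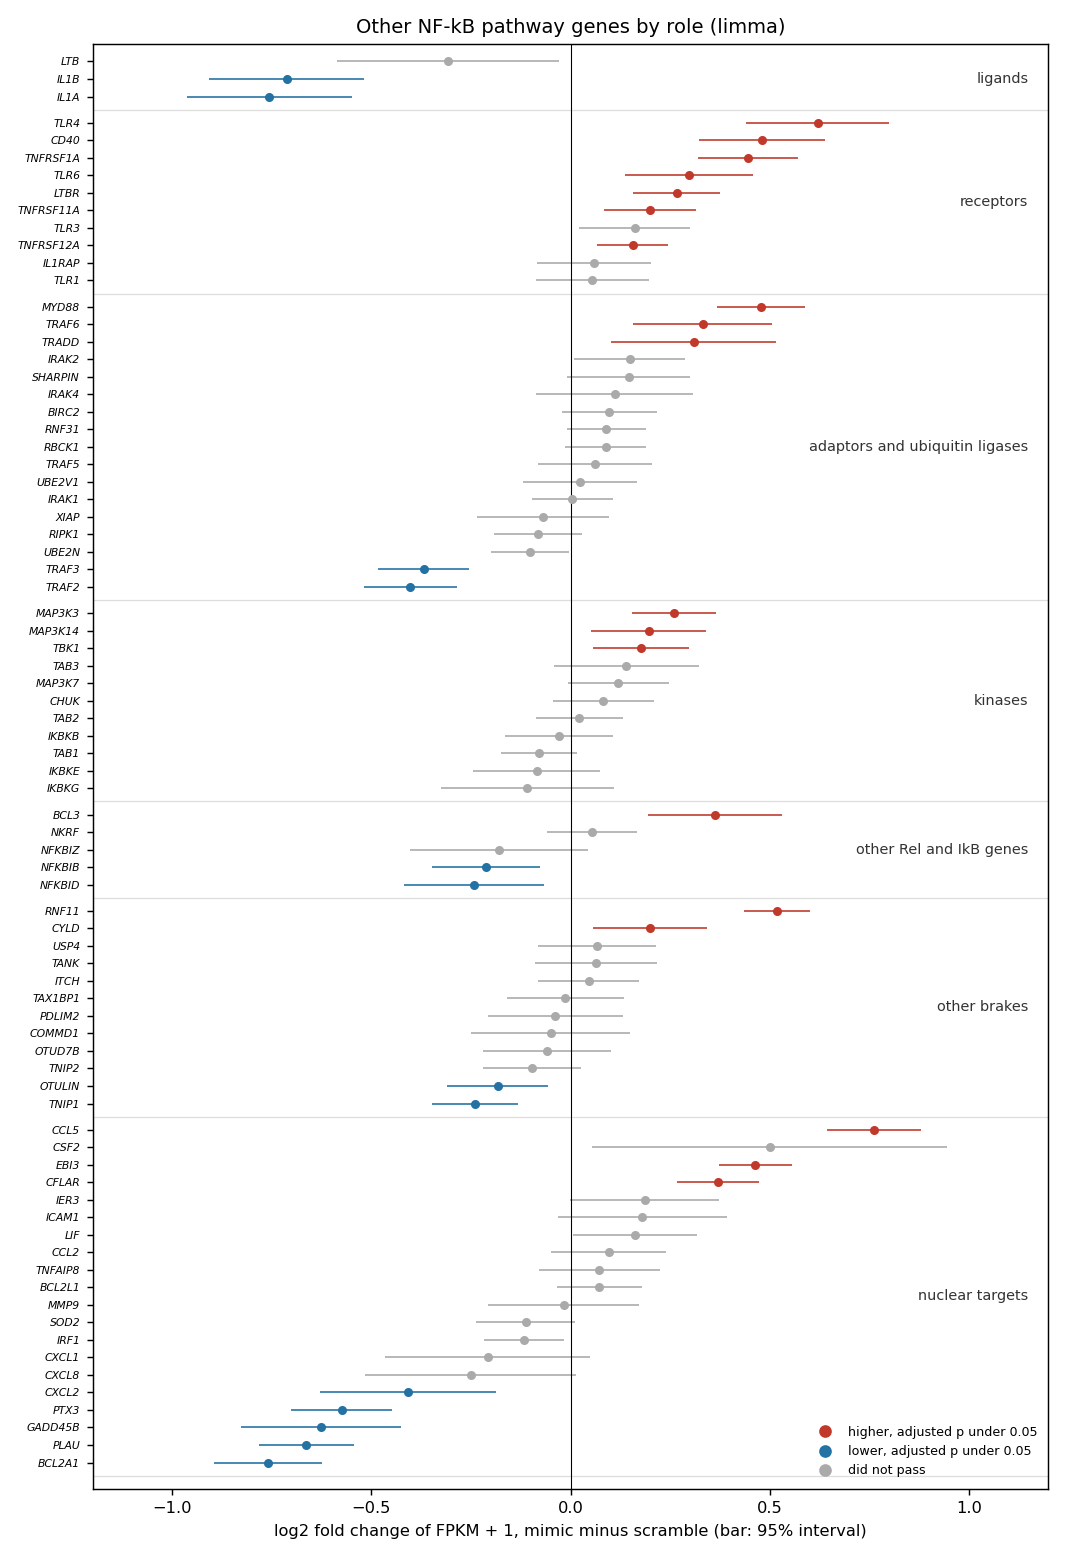
Log2 fold change of FPKM + 1, mimic minus scramble, with 95% intervals from limma (horizontal axis) for 78 other NF-kB pathway genes, grouped by role and ordered within each role. Called genes are red (19 higher) or blue (13 lower); all 7 called receptors are on the right and both called ligands on the left, while nuclear targets lie on both sides.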

How the data were processed

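RNA was measured in 3 mimic and 3 scramble libraries. The submitters' processing notes name build GRCh38 and, as software, DESeq2 1.26.0, featureCounts 2.0.1, HISAT2 2.1.0 and Trimmomatic 0.39. No source used here states the annotation release, the use of strand or how FPKM was computed. The authors deposited FPKM values for 58051 genes, and a filtered table of 401 genes which, per the file headers, holds a mean of normalized counts (a signal), log2 fold changes, a test score and p-values. The fold change in that table had the sign of mimic minus scramble FPKM in all 401 genes. The test score did not share that sign in IL1A (fold change -1.03, score 7.36) and IL1B (-1.52, score 8.02). The headers do not state the direction of the comparison.

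Identifiers were matched to symbols with GENCODE 29 and a table of gene symbols (57447 matched). FPKM times union exon length gave whole reads for 96.2% to 96.5% of low values (tolerance 0.02 reads, up to 20 reads), at depths of 48.0 to 62.7 M reads per library. Whether mates of a pair were counted separately is not given. Each library had 11138 to 11211 genes above 1 FPKM.

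A model with the group as only term was fitted in limma 3.58.1 under R 4.3.3, using a variance trend, to log2(FPKM + 1) of 12912 genes averaging 0.5 FPKM or more, and was tested on simulated data. Alternatives changed the pseudocount, filter, scaling, variance model, libraries, replicate block or test. Permutation tests used SciPy 1.17.1. The members and gene lists were chosen with earlier results of these data known, so their counts are descriptions; named list genes are the up to 4 called genes with the smallest p, all genes of lists of at most 6, and cell type markers. Other genes named, such as BIRC2, CHUK, IKBKB and IKBKG, were chosen after their values were seen. Protein sequences were not used here.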

Additional observations from a re-analysis of the deposited data

How the results depend on the processing

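The 10 NF-kB genes, the other pathway genes and the counts over all genes were refitted under 18 alternatives; ratios, marker levels and promoter matches were not. NFKBIA and TNFAIP2 kept their direction and call under all 18, and BIRC3 under the 17 that tested it, while RELA kept its direction but stayed past the threshold in 6. The number of NF-kB genes called was 2 or 3 higher and 1 lower, except with a filter of 5 FPKM, which leaves BIRC3 out of the test and gave 0 lower. That filter also left 8 other pathway genes lower, against 13. With 1 library left out, 2 NF-kB genes were higher and 1 lower, other pathway genes numbered 15 to 17 higher and 10 to 12 lower, and over all genes 1785 to 2071 were higher and 1595 to 1927 lower. Leaving out 1 library also gave log2 fold changes of -0.10 to 0.0413 for NFKBIE (the highest without mimic replicate 2) and -0.08995 to 0.00029 for RELB (the highest without scramble replicate 1), neither of them called. With the replicate number as a block, 2 NF-kB genes were higher (RELA at adjusted p = 0.0601) and 1 lower, beside 2427 higher and 2182 lower over all genes. Same-numbered libraries had correlations of deviations of -0.0619, 0.241 and 0.0541. Mimic replicates 2 and 3 correlated best with their own number, whereas mimic replicate 1 correlated best with scramble replicate 3 (0.23). These values do not settle whether a shared number marks a shared culture or day, which no source used here gives. Voom on recovered reads called 2579 genes higher and 2467 lower. No scaling moved the median of all tested genes beyond 0.0237 on the log2 scale. In exact permutation tests of single genes, RELA, NFKBIA, TNFAIP2 and BIRC3 gave 0.1, the smallest value possible. Among the 10 genes, the fewest reads in any library were 244 for TRAF1, 311 for BIRC3 and 317 for TNFAIP3.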
